A study of Homo sapiens with 6 samples.

Results

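A set of 10 genes of regulated exocytosis was followed in BT549 cells: the synaptotagmins SYT1, SYT7 and SYT11, the RAB GTPases RAB27A, RAB27B, RAB3B and RAB3D, and the SNARE proteins STX1A, SNAP23 and SNAP25. These 10 of the 58735 genes in the count table were chosen because SYT1 and RAB27B were strongly higher after AS1842856 treatment in these same libraries. Their differences between the treatments are therefore given as a description, without a test. RNA-Seq was performed on 3 libraries of cells treated with DMSO, the vehicle, and 3 libraries of cells treated with AS1842856, labelled 200 nM, for 48 h. BT549 cells are a mesenchymal line derived from a basal-like breast tumor, and AS1842856 is a small-molecule inhibitor of the transcription factor FOXO1 that keeps it off DNA. All 6 libraries came from this 1 line with no allele named in the labels, at 1 dose and 1 time.

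In regulated exocytosis, a loaded vesicle waits at the plasma membrane until a signal, usually calcium, lets it fuse. RAB27 and RAB3 GTPases on the vesicle bind effector proteins that tether and dock it. The plasma membrane SNAREs, a syntaxin and a SNAP25 family protein, then zip together with a VAMP on the vesicle, and a synaptotagmin acts as the calcium sensor. SYT1, STX1A and SNAP25 are best known from synaptic vesicle release in neurons, whereas SNAP23 is the widely expressed relative of SNAP25. RAB27A and RAB27B also act in the release of granules and of extracellular vesicles in many secretory cells.

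Library totals ranged from 15289500 to 22981832 counts, and 14338 genes passed the filter on low counts. BT549 marker genes were abundant, with VIM, FN1, CD44, CDH2 and SPARC summing to 626.5 to 645.4 FPKM (fragments scaled by gene length and library size) in DMSO and 515.1 to 522.9 FPKM in AS1842856 libraries. FN1 rose, with a log2 fold change of 1.13, while VIM, CD44, CDH2 and SPARC fell, with log2 fold changes of -0.34, -0.45, -0.19 and -0.47. Of 10 neuroendocrine and neuronal markers, INSM1, NEUROD1 and ELAVL4 had 0 counts in all 6 libraries and CHGA had 1 count in all. The list summed to 6.07 to 6.35 FPKM in DMSO and 6.24 to 7.16 FPKM in AS1842856 libraries, mostly from ENO2 and NCAM1. Luminal and epithelial markers summed to 14.04 to 15.34 FPKM in DMSO and 16.48 to 18.93 FPKM in AS1842856 libraries, nearly all from GATA3, and ESR1 and CDH1 had 1 count each over all libraries. The part of cell makeup in the results below was not tested, and in bulk RNA fewer expressing cells and less RNA per cell cannot be told apart.

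SYT1, SNAP25, STX1A and RAB27B were the genes with the largest differences among the 10, and their 3 AS1842856 libraries lay far above their 3 DMSO libraries. SYT1, SNAP25 and STX1A were near 4 to 17 CPM (counts per 1e6 reads of the library, scaled by TMM) in every DMSO library, and RAB27B was already above 100. SYT11 was also higher, by a smaller amount. RAB3D was lower, RAB3B differed little, and RAB27A and SNAP23 overlapped between the treatments.

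Beginning with the calcium sensors, SYT1 (ENSG00000067715, chromosome 12, 78863993 to 79452008, plus strand, GRCh38) had 16.7, 13.9 and 14.3 CPM in the DMSO libraries and 118.2, 120.3 and 117.3 CPM in the AS1842856 libraries. The spread within each treatment was a few CPM against a gap of about 100. The means were 14.99 ± 1.51 and 118.6 ± 1.54 CPM (SD, n = 3), a 7.91-fold ratio, and the fitted log2 fold change was 2.97 (SE 0.06). In raw reads these levels were 367, 214 and 266 counts in DMSO and 1969, 2746 and 2091 counts in AS1842856 libraries. SYT1 ranked 95 of 14338 genes when ordered from the largest increase to the largest decrease.

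SYT11 (ENSG00000132718, chromosome 1, 155859509 to 155885199, plus strand) is a synaptotagmin that does not bind calcium and is linked to vesicle trafficking. It had 29.8, 26.4 and 27.6 CPM in DMSO and 40.7, 41.8 and 40.4 CPM in AS1842856 libraries. The groups did not overlap, and the log2 fold change was 0.55 (SE 0.07), well under that of SYT1. SYT7 (ENSG00000011347, chromosome 11, 61515313 to 61581148, minus strand), a high-affinity calcium sensor of slow release, had 1, 0 and 0 counts in DMSO and 1, 1 and 3 counts in AS1842856 libraries. Both groups were at or under the floor of 3 counts per library, so SYT7 was barely detected at this depth, did not pass the filter and has no fold change.

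Among the GTPases, RAB27B (ENSG00000041353, chromosome 18, 54717860 to 54895516, plus strand) had 105.4, 106.8 and 112.3 CPM in DMSO and 327.4, 315.8 and 316.8 CPM in AS1842856 libraries. All 3 treated libraries were close to 3 times the level of any DMSO library. The means were 108.2 ± 3.65 and 320.0 ± 6.44 CPM (SD, n = 3), a 2.96-fold ratio, with a log2 fold change of 1.56 (SE 0.04). Its relative RAB27A (ENSG00000069974, chromosome 15, 55202966 to 55319113, minus strand) had 10.98, 11.52 and 10.49 CPM in DMSO and 9.36, 8.37 and 10.8 CPM in AS1842856 libraries. These groups overlapped, and the log2 fold change was -0.21 (SE 0.12). The RAB27A locus shares exon sequence with PIGB on the opposite strand and with PIGBOS1 on the same strand, whose counts were 61.1% and 37.7% of those of RAB27A, and the use of strand in counting is not given in the sources used here.

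RAB3B and RAB3D, both GTPases of secretory granules, differed from each other in direction. RAB3B (ENSG00000169213, chromosome 1, 51907956 to 51990764, minus strand) had 83.8, 83.9 and 87.8 CPM in DMSO and 89.2, 91.0 and 91.8 CPM in AS1842856 libraries. The highest DMSO library lay just below the lowest AS1842856 library, and the log2 fold change of 0.09 (SE 0.05) was small. RAB3D (ENSG00000105514, chromosome 19, 11322046 to 11346270, minus strand) had 12.3, 10.9 and 12.8 CPM in DMSO and 9.24, 7.23 and 6.90 CPM in AS1842856 libraries. All 3 treated libraries were below all DMSO libraries, with a log2 fold change of -0.64 (SE 0.12). RAB3D shares 144 bp of exon with TMEM205 on its own strand, a gene with 62.9% of its counts and a log2 fold change of 0.03.

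Of the SNAREs, SNAP25 (ENSG00000132639, chromosome 20, 10218830 to 10307418, plus strand) had 4.10, 4.75 and 3.93 CPM in DMSO and 16.1, 16.9 and 18.7 CPM in AS1842856 libraries. It was the least abundant of the 4 genes with a large increase, with 73 to 90 counts per DMSO library and 268 to 386 per AS1842856 library. The means of 4.26 ± 0.435 and 17.2 ± 1.33 CPM (SD, n = 3) gave a 4.04-fold ratio and a log2 fold change of 2.02 (SE 0.13). SNAP23 (ENSG00000092531, chromosome 15, 42491233 to 42545356, plus strand) had 9.66, 8.60 and 9.80 CPM in DMSO and 9.42, 8.15 and 9.93 CPM in AS1842856 libraries. The groups overlapped across nearly their whole range, with a log2 fold change of -0.04 (SE 0.12). LRRC57 overlaps SNAP23 on the opposite strand with about 200% of its counts.

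STX1A (ENSG00000106089, chromosome 7, 73699206 to 73719672, minus strand) had 9.79, 9.90 and 9.36 CPM in DMSO and 35.9, 32.2 and 36.0 CPM in AS1842856 libraries. The lowest treated library was above 3 times the highest DMSO library. The means of 9.69 ± 0.282 and 34.7 ± 2.17 CPM (SD, n = 3) gave a 3.58-fold ratio and a log2 fold change of 1.84 (SE 0.09). STX1A shares 662 bp of exon with BUD23 on the opposite strand, which had 688% of its counts. BUD23 itself averaged 146.8 CPM in DMSO and 158.0 CPM in AS1842856 libraries, a log2 fold change of 0.11. The part of reads from BUD23 in the STX1A values was not tested.

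**Figure D1:**
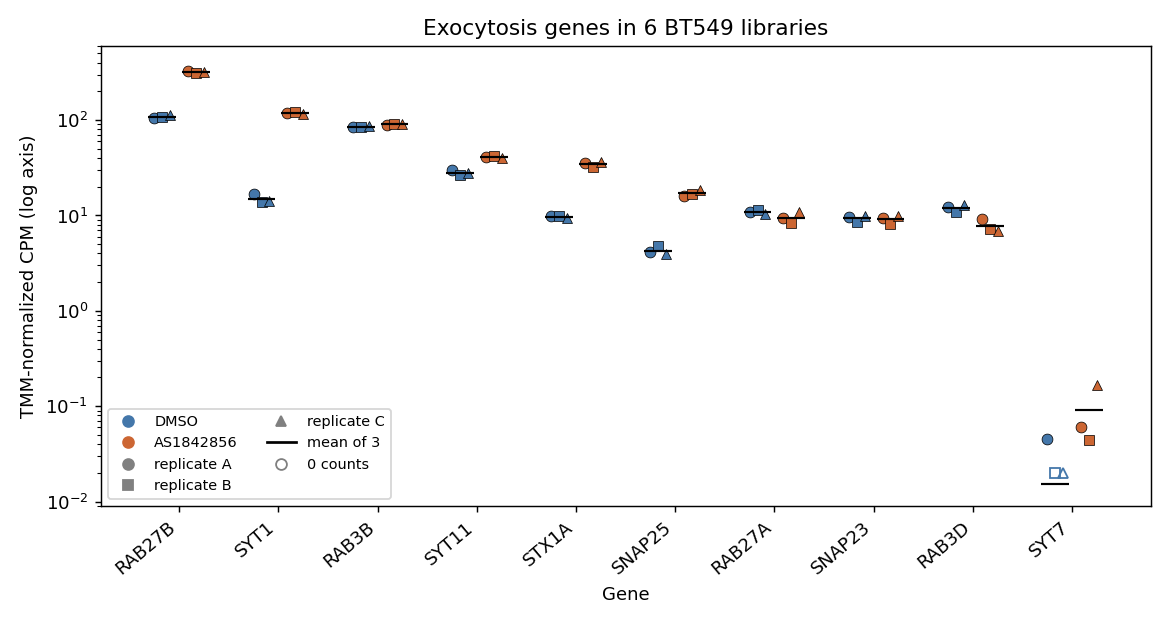
TMM-normalized CPM on a log axis for each of the 10 genes in 3 DMSO and 3 AS1842856 libraries, with marker shapes for the replicate letters, bars for the means and open symbols for 0 counts. The AS1842856 points of SYT1 (117.3 to 120.3 CPM), RAB27B, STX1A and SNAP25 stand clear of the DMSO points, whereas those of RAB27A and SNAP23 are mixed with them.

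Over the 10 genes, 6 had all AS1842856 libraries above all DMSO libraries, where 29.5% of the 14338 genes tested did so, and 1 had them all below, where 30.3% did so. Of the 9 genes that passed the filter, 4 had a log2 fold change of at least 1, against 4.32% of all genes tested. Because the genes were chosen on this contrast, nothing is read from these shares. The median log2 fold change of the 9 was 0.55, beside 0.003 over all genes tested. In the order of all genes by log2 fold change, SNAP25 ranked 198, STX1A 244, RAB27B 324, SYT11 1466, RAB3B 5831, SNAP23 7855, RAB27A 10109 and RAB3D 12655.

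Levels of different genes were compared on the deposited FPKM scale, which divides by gene length. In DMSO, RAB27B was highest at 14.5 ± 0.490 FPKM, followed by RAB3B at 6.59 ± 0.177, SYT11 at 5.30 ± 0.330 and RAB3D at 2.70 ± 0.218 FPKM (SD, n = 3). STX1A at 2.61 ± 0.0743 FPKM overlapped both RAB3D above it and SYT1 below it, which had 2.29 ± 0.234 FPKM. RAB27A, SNAP23 and SNAP25 came next at 1.95 ± 0.0892, 1.58 ± 0.113 and 1.26 ± 0.127 FPKM, and SYT7 was last at 0.0025 FPKM. Each of the remaining neighbours in this order was separated by a gap between their libraries.

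After AS1842856 the order was RAB27B, SYT1, STX1A, SYT11, RAB3B and SNAP25, at 42.8 ± 0.901, 18.1 ± 0.244, 9.34 ± 0.583, 7.77 ± 0.137, 7.02 ± 0.0936 and 5.10 ± 0.386 FPKM (SD, n = 3). RAB3D, RAB27A and SNAP23 followed at 1.75 ± 0.287, 1.69 ± 0.218 and 1.54 ± 0.154 FPKM, and each overlapped its neighbour. SYT1 thus moved from the sixth place to the second and SNAP25 from the ninth to the sixth, while RAB27B was first in both treatments.

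Relatives of the same protein family, which need not serve the same step, were set against each other as FPKM ratios within each library. The ratio of SYT1 to SYT11 was 0.453, 0.425 and 0.418 in DMSO and 2.34, 2.32 and 2.34 in AS1842856 libraries, so the more abundant of the pair changed from SYT11 to SYT1. The ratio of SNAP25 to SNAP23 was 0.746, 0.972 and 0.705 in DMSO and 3.0, 3.65 and 3.31 in AS1842856 libraries, which likewise crossed 1 in all 3. RAB27B exceeded RAB27A in every library, by 7.44 ± 0.566 times in DMSO and 25.6 ± 3.26 times in AS1842856 libraries (SD, n = 3). The ratio of RAB3B to RAB3D was 2.45 ± 0.167 and 4.08 ± 0.665 (SD, n = 3). STX1A stayed below STX4, the broadly expressed plasma membrane syntaxin, in every library, at ratios of 0.209 ± 0.0170 and 0.730 ± 0.0568 (SD, n = 3).

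**Figure D2:**
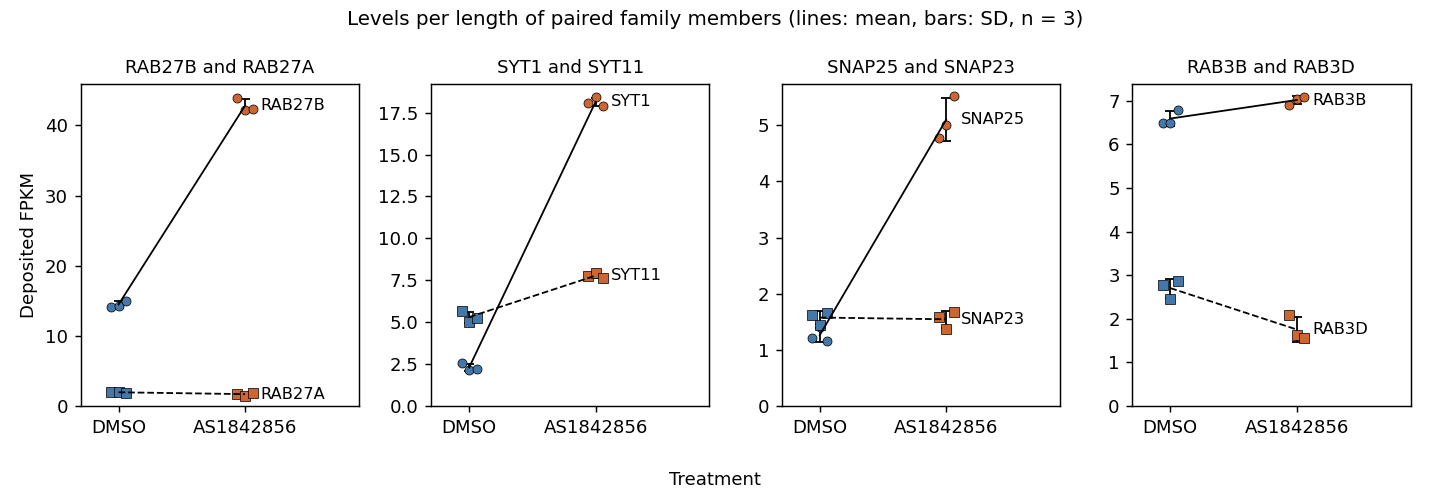
Deposited FPKM of 4 pairs of relatives by treatment, with a point per library, lines joining the means and bars for the SD of 3 libraries. The SYT1 line crosses that of SYT11 and the SNAP25 line crosses that of SNAP23, whereas RAB27B is above RAB27A and RAB3B above RAB3D in both treatments.

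The sequence just before the annotated start was read for the genes with large increases, a choice made on these same libraries. RefSeq windows on GRCh38.p14, running from 250 bases before a start to 50 bases after it, were found for 8 of the 10 genes, all but SYT7 and SNAP25, with 13 windows in all. Stretches outside GENCODE exons are shown 5′ to 3′ on the gene's strand for SYT1, RAB27B and STX1A, with no capitals because neither motif searched was present.
SYT1 chr12:78864524-78864668: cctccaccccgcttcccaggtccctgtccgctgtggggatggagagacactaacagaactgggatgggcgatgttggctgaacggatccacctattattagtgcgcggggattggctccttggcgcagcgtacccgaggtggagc
RAB27B chr18:54717607-54717856: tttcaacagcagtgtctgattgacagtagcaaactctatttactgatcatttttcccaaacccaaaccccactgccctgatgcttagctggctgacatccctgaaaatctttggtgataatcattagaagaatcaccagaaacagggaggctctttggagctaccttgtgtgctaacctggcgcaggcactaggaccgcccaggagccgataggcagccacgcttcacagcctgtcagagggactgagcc
STX1A chr7:73719673-73719919: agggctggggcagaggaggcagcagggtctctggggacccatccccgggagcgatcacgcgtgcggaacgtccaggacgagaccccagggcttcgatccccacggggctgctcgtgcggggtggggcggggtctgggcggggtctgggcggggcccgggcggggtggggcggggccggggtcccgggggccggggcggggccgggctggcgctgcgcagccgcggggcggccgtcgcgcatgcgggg
The 3 sequences differ in base composition. Over the 250 bases before the start, 62.0% of bases were G or C with 13 CpG sites for SYT1, 50.4% with 4 CpG sites for RAB27B and 80.8% with 31 CpG sites for STX1A. The RefSeq start used for SYT1, at 78864774, lies inside the gene span given above, and 105 of its 250 bases are SYT1 exon.

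A FOXO core motif (GTAAACA or TGTTTAC) was in none of the 13 windows and in 3.42% of all 35116 RefSeq windows of this length. A TCF/LEF core motif (CTTTGAT or ATCAAAG) was in 2.62% of all windows and in 2 of the 13, 1 at RAB3B and 1 at a second RAB27B start. These 2 matches are shown within 30 bases on the gene's strand, with the motif in capitals.
RAB3B chr1:51990904-51990933: gctacattatcATCAAAGctctctaattac
RAB27B second start chr18:54828227-54828256: ATCAAAGaaaacacagaacaaaaatgaata
Both matches read the motif on the reverse strand. All 250 bases before the second RAB27B start are RAB27B exon, and 64 of the 250 before the RAB3B start are RAB3B exon. The RAB3B level differed little between the treatments, and the gene counts do not separate the starts of RAB27B.

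The genes whose pattern was most like that of SYT1 over the 6 libraries, by the root mean square difference of centred log2 CPM, were QPCT at 0.0304, PMEPA1 at 0.0843, PCDH7 at 0.112, SLC2A8 at 0.122 and FST at 0.180. QPCT, which encodes glutaminyl cyclase, averaged 4.52 CPM in DMSO and 36.9 CPM in AS1842856 libraries. The genes most like RAB27B were ISLR2 at 0.0308, LIMK2 at 0.0355, MMP14 at 0.0427, HAS2 at 0.0430 and SPRY4 at 0.0516. MMP14, a membrane-anchored matrix metalloproteinase, averaged 720.2 CPM in DMSO and 2158 CPM in AS1842856 libraries. All 10 shared the libraries and the treatment contrast with the gene they resemble, and the order is a description.

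The rest of the exocytosis machinery was described from 10 lists with 140 other genes, of which 99 passed the filter, 21 had 0 counts in all libraries and the other 20 were too low to test. At an adjusted p under 0.05 by edgeR's quasi-likelihood test, 43 rose, 27 fell and 29 were not called. Over all genes tested, 56.0% were called, 27.6% as higher and 28.4% as lower, and the lists together had 43.4% higher and 27.3% lower. The median log2 fold change of the 99 was 0.10, beside 0.003 over all genes.

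The RAB27 and RAB3 effectors, which link the GTPases to the membrane or to motors, spread most widely. Of 15 listed, 11 were tested, 5 rose and 3 fell, with a median log2 fold change of 0.03. The shares were 45.5% higher and 27.3% lower, beside 27.6% and 28.4% over all genes tested. SYTL5, a synaptotagmin-like RAB27 effector, had 0.957, 0.521 and 0.861 CPM in DMSO and 8.82, 8.19 and 8.36 CPM in AS1842856 libraries, and it rose by 3.39 on the log2 scale (SE 0.22, edgeR adjusted p = 1.72e-37). EXPH5, another RAB27-binding protein, had 0.364, 0.326 and 1.18 CPM in DMSO and 4.38, 4.95 and 4.26 CPM in AS1842856 libraries. Its log2 fold change was 2.85 (SE 0.28, edgeR adjusted p = 6.90e-19), or 3.68 without DMSO replicate C. Both started from low levels, with no overlap between the treatments.

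The other effectors that rose, named after their values were seen, were SYTL3 with a log2 fold change of 1.99, SYTL2 with 1.60 and MYO5A, a myosin motor of melanosomes and granules, with 0.83. SYTL2 went from 30.03 ± 1.15 to 90.3 ± 5.10 CPM (SD, n = 3). MLPH, the melanophilin that joins RAB27A to MYO5A, had 191.5 ± 3.68 and 195.2 ± 6.63 CPM and was not called. Of the 4 listed RIM proteins, RAB3 effectors of the neuronal active zone, 2 were called: RIMS1 fell by 2.15 (SE 0.37, edgeR adjusted p = 5.84e-08) and RIMS3 fell by 1.124 on the log2 scale (SE 0.18, edgeR adjusted p = 8.21e-09). The more abundant RIMS2 had 95.4 ± 6.47 and 92.4 ± 2.23 CPM and was not called, and RIMS4 was too low to test. SYTL4 fell by 0.62 on the log2 scale. It shares 1298 bp of exon with SRPX2 on the opposite strand, which had 523% of its counts.

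Among 10 other RAB GTPases tested, 3 rose and 3 fell. Both counts were close to the shares over all genes tested, 27.6% higher and 28.4% lower. RAB38, a GTPase of lysosome-related organelles, rose from 1.30 ± 0.114 to 3.87 ± 0.414 CPM with a log2 fold change of 1.56 (SE 0.25, edgeR adjusted p = 6.82e-09). Its relative RAB32 moved the other way, from 133.3 ± 6.71 to 80.1 ± 3.29 CPM, and fell by 0.73 on the log2 scale (SE 0.04, edgeR adjusted p = 5.48e-40). RAB3A, the main RAB3 of synapses, had 0.820, 1.56 and 2.05 CPM in DMSO and 4.56, 3.37 and 3.53 CPM in AS1842856 libraries, a log2 fold change of 1.39 (SE 0.25, edgeR adjusted p = 2.38e-07). RAB3A overlaps MPV17L2 on the opposite strand, which had 498% of its counts and a log2 fold change of 0.33. RAB8B, a GTPase of transport to the plasma membrane, fell by 0.52 on the log2 scale.

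Of 13 tested RAB regulators (exchange factors, GTPase-activating proteins and prenylation proteins), 8 rose and 3 fell. All changed by less than 0.7 on the log2 scale, and the list is not limited to regulators of RAB27 and RAB3. The shares were 61.5% higher and 23.1% lower, beside 27.6% and 28.4% over all genes tested. MADD, an exchange factor for RAB3 and RAB27, rose from 48.2 ± 4.37 to 63.3 ± 3.61 CPM with a log2 fold change of 0.40 (SE 0.06, edgeR adjusted p = 1.40e-10). TBC1D10A, a GTPase-activating protein for RAB27A, also had a log2 fold change of 0.40, at an edgeR adjusted p of 0.00662 that was lost without AS1842856 replicate B, where the value was 0.26. RAB3IL1 and RAB3IP, exchange factors that act on RAB8, fell by 0.65 and 0.62 on the log2 scale.

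Among 12 other SNAREs tested, 6 rose and 2 fell, where 27.6% of all genes tested were called higher and 28.4% lower. STX3, a syntaxin of apical membranes and granules, had 12.1, 12.2 and 13.3 CPM in DMSO and 28.3, 27.5 and 26.5 CPM in AS1842856 libraries, and its log2 fold change was 1.13 (SE 0.09, edgeR adjusted p = 1.01e-26). VAMP2, the vesicle partner of STX1A and SNAP25 in neurons, went from 42.3 ± 0.905 to 54.4 ± 1.45 CPM (log2 fold change 0.36, SE 0.06, edgeR adjusted p = 1.13e-08). The increases of STX3 and VAMP2 were smaller than the 1.84 of STX1A and 2.02 of SNAP25 on the same scale, a difference that was not tested. VAMP1 fell by 0.41 on the log2 scale, a call that was lost without DMSO replicate A, where the log2 fold change was -0.27. VAMP1 shares 339 bp of exon with TAPBPL on the opposite strand, which had 24.7% of its counts and a log2 fold change of -0.68.

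The other synaptotagmins were mostly silent, with 5 of 14 tested and 5 at 0 counts in all libraries. SYT15 fell from 12.4 ± 1.40 to 1.40 ± 0.105 CPM (log2 fold change -3.14, SE 0.17, edgeR adjusted p = 7.27e-46). SYT15 has a near-identical copy in the genome, so this value is uncertain as to which copy the reads came from. SYT14 fell from 19.4 ± 2.75 to 13.0 ± 0.629 CPM (log2 fold change -0.58, SE 0.10, edgeR adjusted p = 6.01e-08). SYT17 was near 1 CPM in both groups, and its call as higher was lost without any library other than DMSO replicate B, its log2 fold change lying between 0.66 and 0.99.

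The SNARE chaperones and priming factors had 2 members that rose and 4 that fell among 11 tested. The shares were 18.2% higher and 36.4% lower, beside 27.6% and 28.4% over all genes tested. UNC13B, which readies docked vesicles for fusion, fell from 42.2 ± 1.17 to 27.9 ± 0.917 CPM (log2 fold change -0.60, SE 0.07, edgeR adjusted p = 2.09e-15). STXBP5, or tomosyn, an inhibitor of SNARE assembly, fell from 110.9 ± 3.34 to 79.4 ± 2.48 CPM (log2 fold change -0.48, SE 0.05, edgeR adjusted p = 2.12e-20). STXBP4 had a log2 fold change of 0.69, beside 420% as many counts in COX11 on the opposite strand. STXBP2, a partner of STX3 in granule release, had a log2 fold change of 0.65 with overlapping groups, and without DMSO replicate A it was 1.05. Without DMSO replicate C or AS1842856 replicate B, STXBP2 was at 0.44 and 0.52 and no longer called.

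All 9 subunits of the exocyst, which tethers vesicles to the plasma membrane, were tested, and 4 rose and 3 fell by small amounts. The shares were 44.4% higher and 33.3% lower, beside 27.6% and 28.4% over all genes tested. EXOC8 and EXOC3 had log2 fold changes of 0.37 and 0.30, and EXOC6B and EXOC7 of -0.32 and -0.22. The EXOC6B call was lost without AS1842856 replicate C, where the log2 fold change was -0.23. EXOC8 overlaps SPRTN on the opposite strand, which had 95.1% of its counts.

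**Figure D3:**
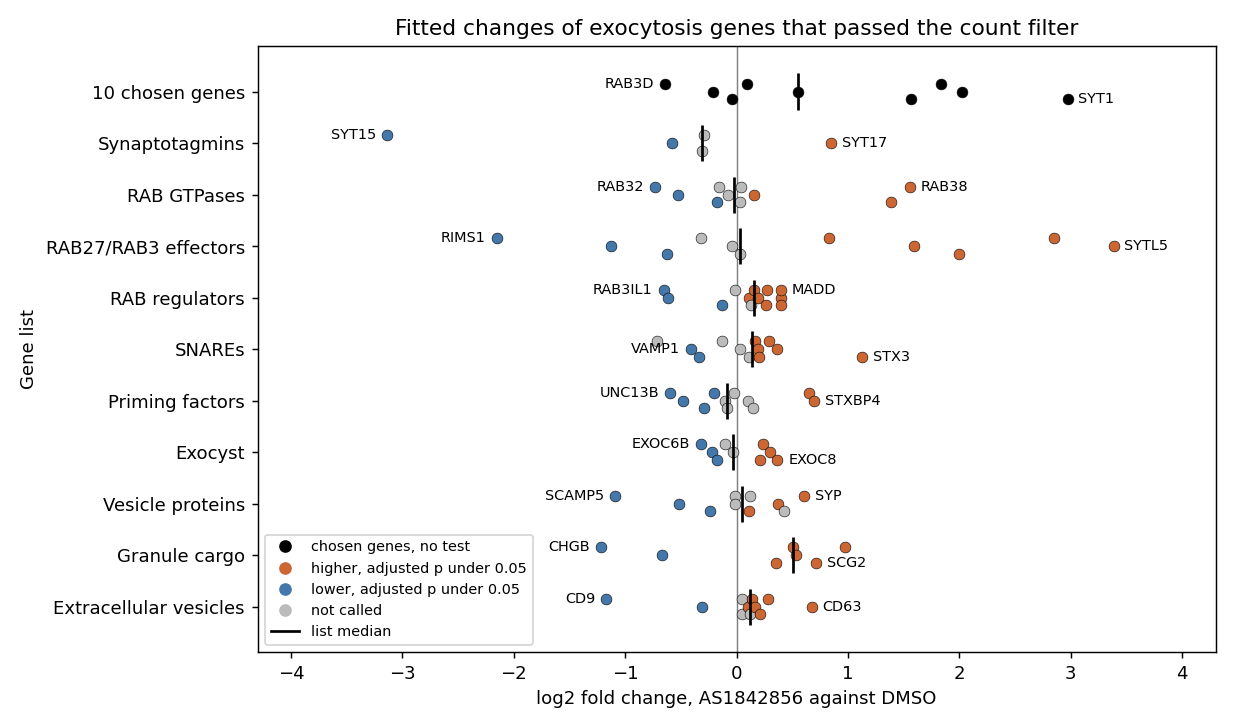
Fitted log2 fold changes of genes that passed the count filter, by list, in orange or blue where the edgeR adjusted p was under 0.05 and black for the chosen genes, with a bar at each list's median. The effectors reach from RIMS1 at -2.15 to SYTL5 at 3.39, whereas the RAB regulators and the exocyst stay within 0.7 of zero.

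Each fold change of the 9 chosen genes was refitted with other settings. Leaving out 1 library at a time gave log2 fold changes of 2.92 to 3.07 for SYT1, 1.54 to 1.59 for RAB27B, 1.96 to 2.09 for SNAP25 and 1.81 to 1.89 for STX1A. SYT11 lay between 0.51 and 0.60, RAB3B between 0.07 and 0.11, RAB3D between -0.77 and -0.57 and RAB27A between -0.32 and -0.12. SNAP23 changed sign, from -0.11 without AS1842856 replicate C to 0.04 without AS1842856 replicate B. Low-level RAB27A and RAB3D thus moved more between the fits than RAB27B or SYT1.

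**Figure D4:**
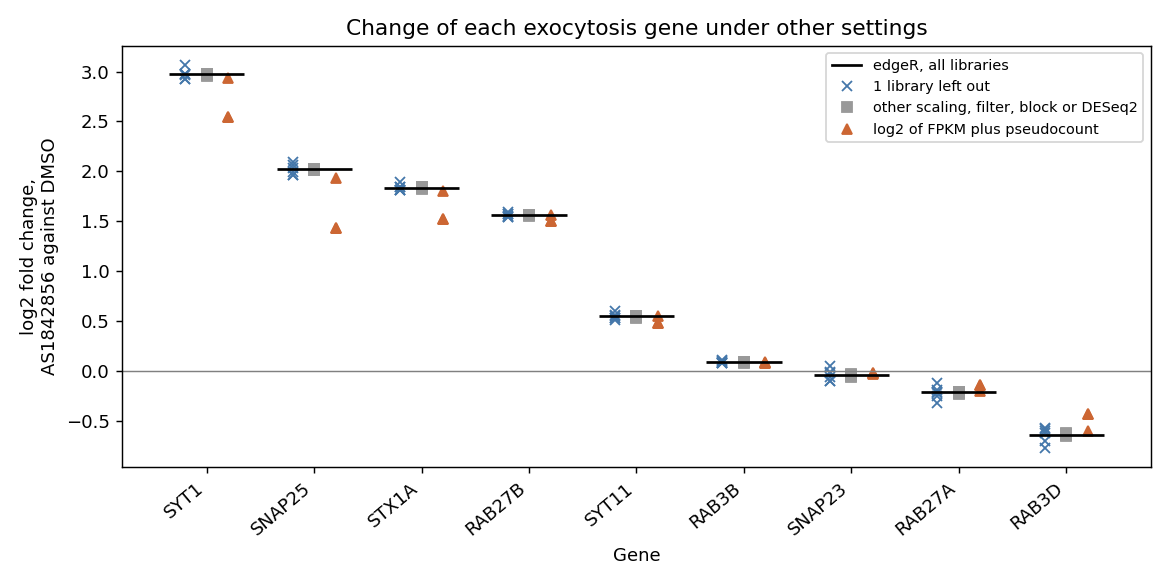
Log2 fold change of the 9 chosen genes that passed the filter, with a bar for edgeR on all libraries and symbols for fits without 1 library, with another scaling, filter, block or DESeq2, and on log2 FPKM with a pseudocount. SYT1 stays between 2.92 and 3.07 when a library is left out, and the lowest triangles, at a pseudocount of 1, pull low genes such as SNAP25 toward zero.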

How the data were processed

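BT549 cells were treated with DMSO or AS1842856 for 48 h (200 nM per the labels, 1 μM in the study's text, not resolved), with 3 libraries each, described as biological replicates. The authors mapped reads with STAR per the paper, while the submitters' processing notes name CASAVA, Bowtie 0.12.2 and GRCh38. The counting tool and its use of strand are not given in the sources used here. The authors deposited raw counts per gene and, per library, FPKM for 25015 genes. All 58735 identifiers matched GENCODE 29.

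The count table was fitted with edgeR 4.0.16 under R 4.3.3 (filterByExpr with a minimum count of 10 and total of 15, TMM, glmQLFit robust, glmQLFTest), with Benjamini-Hochberg adjustment over all 14338 genes and a threshold of 0.05. Levels are TMM-scaled CPM or deposited FPKM. The common biological coefficient of variation was 0.0374. The floor of 3 counts covers counting error only. The script was tested on simulated data with far fewer changed genes than were called here, so such a share of calls was not tested. The chosen genes and all lists were selected with earlier results of these data known. Named list genes are the 2 largest increases and decreases among called genes with a mean of at least 1 CPM, other names being marked. Some genes of the lists are not reported here by name. Alternatives were DESeq2 1.42.0, limma 3.58.1 on log2(FPKM + 1 or 0.1), other scalings and filters, the replicate letter as a block, and leaving out each library. Deviations of same-letter libraries were close to uncorrelated, which cannot exclude a pairing. Promoter windows are from RefSeq.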

Additional observations from a re-analysis of the deposited data

How the results depend on the processing

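The counts of genes called, of chosen genes with a log2 fold change of at least 1 and of other exocytosis genes called stayed within 1.5 times their values under every alternative run. Genes called numbered 8029, 6791 with DESeq2, 7862 with the replicate block, 6453 with limma on log2(FPKM + 1) for all genes above 0, and 7427 to 7678 when a library was left out. Other exocytosis genes called numbered 70, then 56, 69, 48 and 59 to 68 in these same settings. The chosen genes with a log2 fold change of at least 1 numbered 4 throughout. No pairing by replicate letter was seen, as same-letter libraries had correlations of their deviations of 0.042, -0.012 and -0.0033. Not every library correlated best with its own letter, although the value for A was the highest of all pairs. Such correlations over all genes cannot exclude a pairing. The replicate block ended no call of a list gene named here.

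No named gene that was called changed sign. With DESeq2 the calls of SYT17, TBC1D10A, STXBP2, EXOC6B, SYP and SV2A were lost, all with log2 fold changes of less than 1. With no filter those of SYT17, SYP and SV2A were lost. In 1 or more of the limma fits on log2 FPKM the calls of each gene named for DESeq2 were lost, and VAMP1 lost its call in all 3. RIMS1, STXBP4 and EXOC7 lost theirs in the limma fit on all genes above 0. On log2(FPKM + 1) the fold changes shrank by construction, most for low genes: to 2.54 for SYT1, 1.43 for SNAP25, 1.52 for STX1A, 1.25 for SYTL5, -1.19 for SYT15 and -0.41 for RIMS3, and in the fit on all genes above 0 to 0.42 for EXPH5 and -0.17 for RIMS1. The abundant RAB27B moved little, to 1.502. SYT7, CHGA and most other silent genes were at the limit of detection at this depth.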

Other observations

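The cargo of dense-core granules and the proteins of extracellular vesicles moved in both directions. Of 11 listed granins and prohormone-processing proteins, 7 were tested, 5 rose and 2 fell, shares of 71.4% higher and 28.6% lower beside 27.6% and 28.4% over all genes tested, with a median log2 fold change of 0.50. PAM, the enzyme that amidates peptide hormones, went from 186.6 ± 4.42 to 270.7 ± 8.02 CPM (SD, n = 3; log2 fold change 0.54, SE 0.04, edgeR adjusted p = 5.50e-33). SCG2, a granin, went from 27.9 ± 1.66 to 45.7 ± 3.33 CPM (log2 fold change 0.71, SE 0.07, edgeR adjusted p = 8.48e-21). CHGB, another granin, moved the other way at a low level, from 3.11 ± 0.526 to 1.35 ± 0.370 CPM, and fell by 1.22 on the log2 scale (SE 0.26, edgeR adjusted p = 2.06e-05). PCSK1N, an inhibitor of prohormone convertase, fell by 0.67 on the log2 scale. The prohormone convertases themselves were near silent, with PCSK2 at 0 counts in all libraries, PCSK1 too low to test and both named after their values were seen.

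All 11 proteins of multivesicular endosomes and extracellular vesicles were tested, and 6 rose and 2 fell. The shares were 54.5% higher and 18.2% lower, beside 27.6% and 28.4% over all genes tested. The tetraspanin CD63 had 363.6, 342.4 and 342.8 CPM in DMSO and 543.8, 559.4 and 573.4 CPM in AS1842856 libraries, a log2 fold change of 0.68 (SE 0.03, edgeR adjusted p = 3.35e-50). The tetraspanin CD9 had 41.8, 42.0 and 37.8 CPM in DMSO and 18.1, 19.1 and 16.7 CPM in AS1842856 libraries, and fell by 1.17 on the log2 scale (SE 0.08, edgeR adjusted p = 1.73e-36). These 2 widely used vesicle markers thus differed in direction, with no overlap between the treatments for either. Over all genes tested, 29.5% were separated upward in this way and 30.3% downward. CD81, another listed tetraspanin named after its values were seen, had a log2 fold change of 0.11 with overlapping groups (edgeR adjusted p = 0.0157). CHMP4B, a membrane-remodelling subunit, had a log2 fold change of 0.28 and STAM, a sorting adaptor, of -0.31.

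Of 10 synaptic vesicle membrane and coat proteins tested, 3 rose and 3 fell. Both counts were close to the shares over all genes tested, 27.6% higher and 28.4% lower. SYP, or synaptophysin, had a log2 fold change of 0.61 that was 0.34 and not called without AS1842856 replicate B, and its call was also lost without DMSO replicate A or B, at 0.55 and 0.58. SV2A had 0.37, a call lost without DMSO replicate A or B or AS1842856 replicate B or C, with values of 0.32 to 0.35. SCAMP5 fell by 1.09 on the log2 scale (SE 0.20, edgeR adjusted p = 4.89e-07) and SYNGR2 fell by 0.51 (SE 0.08, edgeR adjusted p = 3.11e-09), the former beside 611% as many counts in RPP25, which overlaps it on the opposite strand.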
